A study of Mus musculus with 11 samples.

Results

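The miR-379 to miR-410 cluster is a run of microRNA hairpins on the distal part of mouse chromosome 12, within the imprinted Dlk1-Dio3 domain. Its members were chosen by name from a list of 35 hairpins, and each hairpin has a 5p and a 3p row in the count tables, so 70 of the 1907 rows belonged to the cluster. Small RNA was sequenced from the brains of 11 male Balb/cOlaHsd mice, with an age of 3 months in the sample labels and of 3 to 6 months in the study's methods, 3 days after surgery. In 5 mice the left middle cerebral artery was closed for good by heat coagulation (pMCAO), a model of ischemic stroke without reperfusion, and in 6 sham mice the artery was exposed and lifted but not closed. The labels give peri-ischemic cortex, the tissue around the ischemic core, for the pMCAO mice and cortex for the sham mice, whereas the methods call the tissue of both groups peri-ischemic. If the dissections differed as the labels do, surgery and sampled tissue cannot be told apart. The names of the deposited tables add the word vehicle to both groups, and the labels name no agent.

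In the Dlk1-Dio3 domain the non-coding genes, including these microRNAs, are expressed from the maternal chromosome, and the protein-coding genes from the paternal one. The cluster is thought to be transcribed as long precursors from which many hairpins are cut, and it is known in the brain for its expression in neurons and its induction by neuronal activity through Mef2 factors. A microRNA hairpin yields a 5p and a 3p strand, and the strand that is loaded into Argonaute finds its targets mainly through bases 2 to 8, the seed. The comparison between pMCAO and sham mice asks which microRNAs differ in brain tissue after a stroke, and here it was read for the members of this cluster.

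The 35 hairpins lie on the plus strand at chr12:109709060-109743795 (GRCm38), a span of 34.7 kb from mir-379 to mir-410. The first 23 hairpins, mir-379 to mir-539, lie in no annotated host gene. The last 12, mir-382 to mir-410, lie within the long non-coding RNA Mirg (chr12:109729764-109749460), 8 of them in exons and 4 (mir-154, mir-496a, mir-541 and mir-409) in introns. In the RefSeq table of GRCm38.p6, 66 of the 70 rows had a mature sequence. Sequences of miR-376c-3p, miR-485-5p, miR-487b-3p and miR-539-3p are not shown. The sequences below are those of the members whose values are described most closely, 5′ to 3′, with the seed in capitals. The first set holds the mir-379 (chr12:109709060-109709125) and mir-411 (chr12:109710175-109710256) arms, the first hairpins of the cluster.
miR-379-5p: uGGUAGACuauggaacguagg
miR-411-5p: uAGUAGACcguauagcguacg
miR-379-3p: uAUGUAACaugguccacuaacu
miR-411-3p: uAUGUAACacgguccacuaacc

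The 3p arms of these hairpins share the seed AUGUAAC and differ at 2 of 22 bases. The miR-376 family, at mir-376c (chr12:109722718-109722803), mir-376b (chr12:109723458-109723539) and mir-376a (chr12:109723781-109723848), is shown because it holds the most abundant member and a pair of 5p arms with the same seed.
miR-376a-5p: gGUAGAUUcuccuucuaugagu
miR-376b-5p: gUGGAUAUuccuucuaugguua
miR-376c-5p: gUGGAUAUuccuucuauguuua
miR-376a-3p: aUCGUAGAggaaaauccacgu
miR-376b-3p: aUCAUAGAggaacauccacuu

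miR-376b-5p and miR-376c-5p share the seed UGGAUAU and differ at 1 of 22 bases. miR-376a-3p and miR-376b-3p differ at 3 of 21 bases, and their seeds are UCGUAGA and UCAUAGA. miR-300-3p (mir-300, chr12:109724313-109724391) and miR-381-3p (mir-381, chr12:109726822-109726896) are shown because they differ at 3 of 22 bases and miR-300-3p had the lowest fold change of all members. miR-412-3p (mir-412, chr12:109743289-109743368), with the highest fold change, is shown with the 5p arm of mir-134 (chr12:109734139-109734209), the member best known for limiting dendritic spine size.
miR-300-3p: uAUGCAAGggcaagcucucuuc
miR-381-3p: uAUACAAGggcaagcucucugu
miR-412-3p: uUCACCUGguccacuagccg
miR-134-5p: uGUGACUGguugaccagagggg

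The libraries held between 1429037 and 2319810 counts in the sham group and between 744877 and 1411620 in the pMCAO group, so the depths of the groups did not overlap. Levels are given as CPM, counts scaled to a common library size, after TMM normalization, which corrects the library sizes for a few microRNAs taking a large share of the counts. On this scale 3 counts correspond to between 1.497 and 3.55 CPM, depending on the library. Of the neuronal microRNAs used as markers, miR-124-3p was the most abundant, at 209811 CPM (SD 22259) in sham libraries and 168631 (SD 12682) in pMCAO libraries, so neuronal RNA was present in both groups. How reads that match several microRNAs were counted is not stated, so near-identical members could share reads.

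After a filter on low counts, 56 of the 70 members were tested, from 32 hairpins, 24 of them with both arms. No member passed the test between pMCAO and sham mice. By the quasi-likelihood test of edgeR, with p-values adjusted by Benjamini-Hochberg over all 479 microRNAs tested, 0 of the 56 members reached an adjusted p of 0.05, where 7.1% of all tested microRNAs did, 21 of them higher and 13 lower in pMCAO. DESeq2 called 1 of the 56 members, miR-300-3p, and 45 of all 479 tested microRNAs. At an unadjusted p under 0.05 there were 6 members (10.7% of the 56), against 24.4% of all tested microRNAs. Of these, 5 had a negative fold change (8.93% of the members, against 11.5% of all) and 1 a positive one (1.79% against 12.9%).

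The fold changes of the members were small, and their errors were small too. The log2 fold change of pMCAO over sham had a median of -0.03 across the members, with quartiles of -0.10 and 0.11, and it ran from -0.46 for miR-300-3p to 0.52 for miR-412-3p. Across all 479 microRNAs the median was 0.00 and the quartiles -0.18 and 0.23. The value lay within 0.25 of 0 for 47 of the 56 members (83.9%), against 59.7% of all tested microRNAs. The 95% interval of the fold change, taken for each microRNA on its own, lay within a 2-fold change in either direction for 56 of 56 members and for 391 of 479 microRNAs (81.6%). It lay within a 1.5-fold change for 43 members (76.8%) and for 48.6% of all. With libraries scaled by their total counts alone, the median was 0.14 for the members and 0.18 for all tested microRNAs, and 7 of the 56 members in place of 32 had a negative value. The shares under TMM describe the cluster beside the other microRNAs, and no test of that difference was made. The other microRNAs were not matched to the members for level. Among the members the median SE was 0.129 at a mean of at least 500 CPM and 0.183 below it. The widest bounds among the members were -0.75 for miR-300-3p and 0.97 for miR-412-3p.

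**Figure D1:**
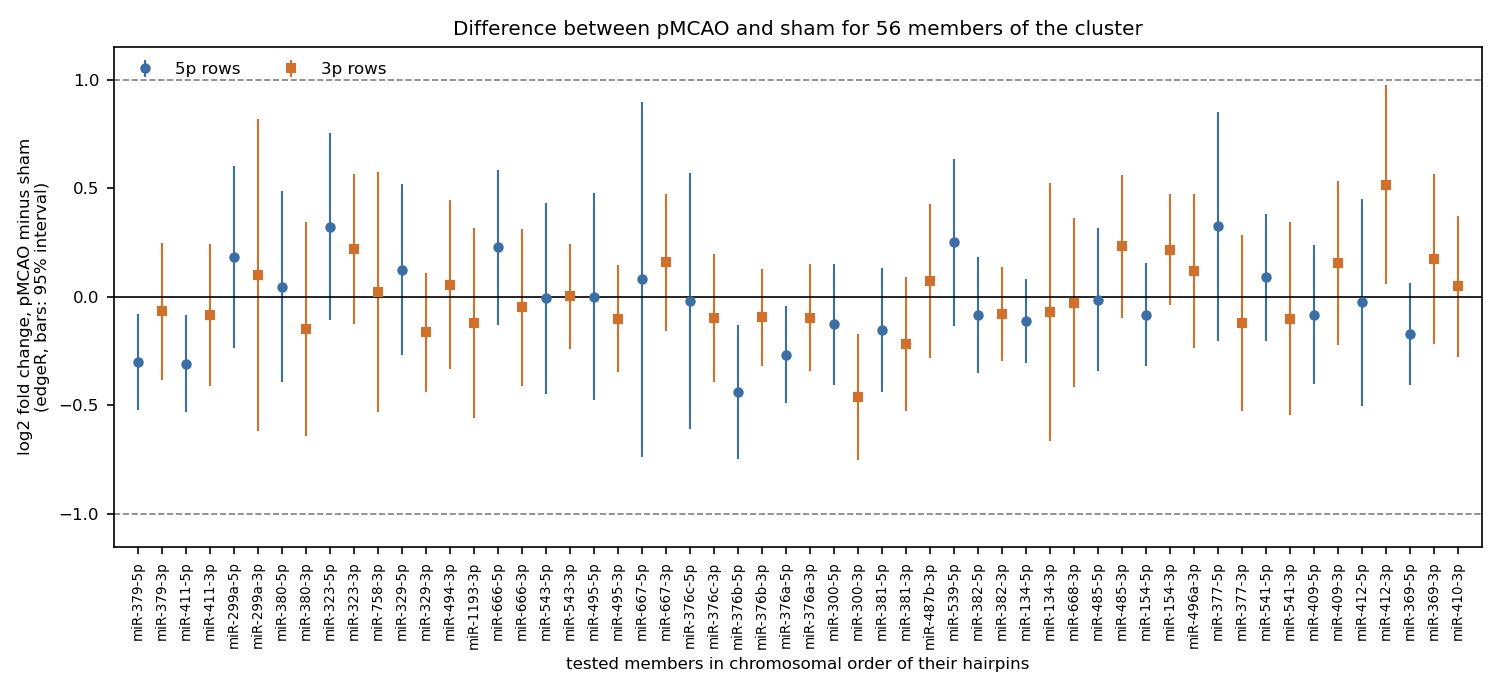
The log2 fold change of pMCAO (n = 5) over sham (n = 6) on the vertical axis is plotted for the 56 tested members in the order of their hairpins along the chromosome, with circles for 5p rows and squares for 3p rows. Bars are the 95% intervals of edgeR's fit and dashed lines mark a 2-fold change, and every bar lies between the dashed lines, from -0.75 to 0.97.

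Summed over all 70 rows, the cluster made up 3.18% ± 0.257 (SD over the 6 libraries) of the counts in sham and 3.35% ± 0.438 (SD over the 5 libraries) in pMCAO libraries. The share ran from 2.85% to 3.56% in sham libraries, with a median of 3.17%, and it was 3.15%, 3.40%, 2.92%, 3.23% and 4.07% in the 5 pMCAO libraries. The groups overlapped, and the difference of 0.178 percentage points was smaller than the SD within the groups of 0.349. Without pMCAO replicate 5, the library with the highest share, it was -0.00196 points. The order of the groups depended on the scaling. As TMM-normalized CPM the sum was 33535 ± 1728 in sham and 31367 ± 3424 in pMCAO libraries, with 4 of the 5 pMCAO libraries below every sham library and replicate 5, at 37229, above all of them. On this scale the sum over all 479 tested microRNAs was lower in pMCAO libraries too, at 1058480 ± 67360 in sham and 936616 ± 38810 in pMCAO. That sum is set by the factor that TMM gives each library, so it restates the scaling and measures no change.

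**Figure D2:**
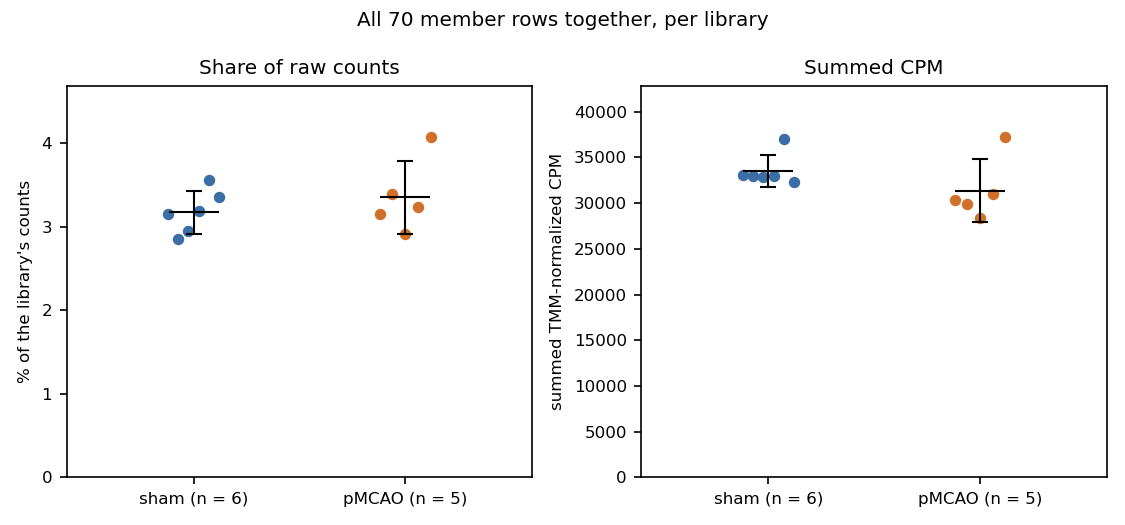
Points are libraries, and bars are the mean and SD. The left panel gives the share of a library's raw counts held by the 70 member rows in percent and the right panel their summed TMM-normalized CPM. The groups overlap in both, and 1 pMCAO library lies highest, at 4.07% and 37229 CPM.

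Errors after ± are SDs, over 6 sham and 5 pMCAO libraries, throughout. Levels differed widely within the cluster. The mean CPM of the tested members ran from 8.21 to 7426 with a median of 283. miR-376a-3p alone held 22.8% of the summed CPM of the cluster and ranked 31st of all rows of the tables, the 2 most abundant members held 32.6% and the 12 most abundant 69.3%. miR-376a-3p and miR-376b-3p led in both groups, and among the 12 most abundant only miR-379-5p had groups that did not overlap.

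**Figure D3:**
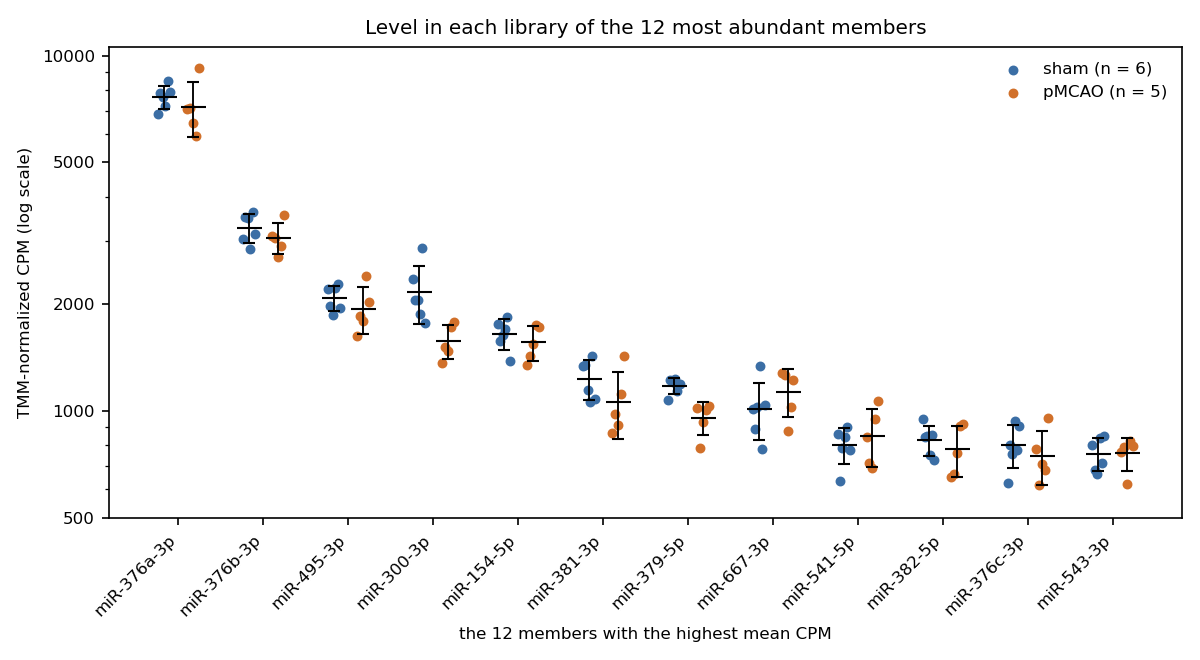
TMM-normalized CPM on a log axis is plotted for the 12 members with the highest mean level, with a point for each sham (n = 6) and pMCAO (n = 5) library and bars for the mean and SD. miR-376a-3p lies highest at 7648 in sham and 7160 in pMCAO, and the pMCAO points lie below all sham points only for miR-379-5p.

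Of the 3p arms of the miR-376 family, miR-376a-3p and miR-376b-3p were the most abundant products of the cluster, and miR-376c-3p ranked 11th. miR-376a-3p, which is known to undergo A-to-I editing in the brain, ran from 6826 to 8452 CPM in sham libraries, with a median of 7749, and it was at 7058, 7138, 6446, 5925 and 9234 CPM in the pMCAO libraries. The highest and the lowest value of all libraries were both in the pMCAO group. The log2 fold change was -0.10 (SE 0.12). miR-376b-3p was at 3278 ± 307 CPM in sham and 3070.8 ± 316 in pMCAO libraries, with a log2 fold change of -0.09 (SE 0.10), and miR-376c-3p at 800 ± 112 and 747 ± 128, with -0.10 (SE 0.14). The intervals of these fold changes were -0.34 to 0.15 for miR-376a-3p and -0.32 to 0.13 for miR-376b-3p.

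The 5p arms of the same hairpins were less abundant, and those of mir-376a and mir-376b, but not of mir-376c, had lower fold changes than the 3p arms. miR-376b-5p ran from 447 to 706 CPM in sham libraries, with a median of 576, and was at 423, 309, 411.4, 468 and 496.5 CPM in pMCAO libraries. Of the pMCAO libraries, 3 lay below every sham library, and the groups overlapped. Its log2 fold change was -0.44 (SE 0.14, edgeR adjusted p = 0.0862). miR-376a-5p was at 353 ± 23.1 CPM in sham and 293 ± 37.3 in pMCAO libraries, with a log2 fold change of -0.27 (edgeR adjusted p = 0.140). miR-376c-5p, which shares its seed with miR-376b-5p, was far lower, at 9.69 ± 2.46 and 9.25 ± 2.91 CPM, with a log2 fold change of -0.02 (SE 0.27).

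miR-300-3p came closest to the threshold. It ran from 1767 to 2873 CPM in sham libraries, with a median of 2051, and was at 1362, 1509, 1473, 1717 and 1774 CPM in pMCAO libraries. All pMCAO libraries but replicate 5 lay below every sham library, and replicate 5 exceeded only the lowest sham library. The log2 fold change was -0.46 (SE 0.13, edgeR adjusted p = 0.0530), and the adjusted p was 0.0279 with DESeq2 and 0.0458 with edgeR's robust fit. With each library left out in turn, the log2 fold change stayed between -0.51 and -0.36 and the adjusted p between 0.0557 and 0.196. The other arm, miR-300-5p, was at 559 ± 53.3 CPM in sham and 512 ± 98.4 in pMCAO libraries, with a log2 fold change of -0.13. miR-381-3p, which is close to miR-300-3p in sequence and belongs to the members linked to dendrite growth, ran from 1056 to 1428 CPM in sham libraries and was at 863, 978, 910, 1111 and 1426 CPM in pMCAO libraries, with a log2 fold change of -0.22 (SE 0.14, edgeR adjusted p = 0.418). Its groups overlapped across most of their range, and without pMCAO replicate 5 the log2 fold change was -0.34 (edgeR adjusted p = 0.144).

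At the start of the cluster, miR-379-5p and miR-411-5p were the only members whose groups did not overlap. miR-379-5p ran from 1072 to 1231 CPM in sham libraries, with a median of 1196, and was at 1020, 785, 932, 1004 and 1030 CPM in pMCAO libraries. Its log2 fold change was -0.30 (SE 0.10, edgeR adjusted p = 0.0959). miR-411-5p ran from 664.9 to 866.1 CPM in sham libraries, with a median of 711, and was at 604, 527, 583.5, 597 and 664.1 CPM in pMCAO libraries. Its log2 fold change was -0.31 (SE 0.10, edgeR adjusted p = 0.0929). For both, the gap between the groups was small, since the highest pMCAO library lay just under the lowest sham library. These 2 of 56 members (3.57%) compare with 3.34% of all tested microRNAs whose pMCAO libraries all lay lower, and with 7.52% whose groups did not overlap in either direction, so such a count is about what the whole table held. With libraries scaled by total counts alone, the log2 fold change was -0.13 for both, and it was -0.28 for miR-300-3p, -0.26 for miR-376b-5p, -0.09 for miR-376a-5p and -0.04 for miR-381-3p.

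The 3p arms of these hairpins, which share a seed, had values near 0. miR-379-3p was at 73.7 ± 5.53 CPM in sham and 70.2 ± 13.2 in pMCAO libraries, with a log2 fold change of -0.07 (SE 0.15). miR-411-3p was at 320 ± 53.5 and 302 ± 69.3, with -0.08 (SE 0.15).

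The other members among the 12 most abundant had fold changes close to 0. miR-495-3p was at 2076 ± 173 CPM in sham and 1935 ± 292 in pMCAO libraries, with a log2 fold change of -0.10 (SE 0.11). miR-154-5p was at 1646 ± 160 and 1556 ± 177 CPM, with -0.08 (SE 0.11). miR-667-3p was higher in pMCAO libraries on average, at 1013 ± 186 and 1131 ± 175 CPM, with 0.16 (SE 0.15), and its groups overlapped. miR-541-5p was at 800 ± 94.4 and 851 ± 158 CPM, and miR-382-5p at 826 ± 79.4 and 779 ± 128 CPM. miR-543-3p had nearly the same level in both groups, 756 ± 81.1 and 757.6 ± 79.5 CPM, with a log2 fold change of 0.00 (SE 0.11).

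Members with a known role at synapses were read after their values were seen, since the naming rule did not reach them. miR-134-5p, which limits dendritic spine size through Limk1, ran from 354 to 420 CPM in sham libraries, with a median of 398, and was at 390, 352, 354, 379.4 and 349 CPM in pMCAO libraries. The groups overlapped, the log2 fold change was -0.11 (SE 0.09), and its interval ran from -0.31 to 0.08. miR-329-3p, which acts with miR-134 in activity-dependent dendrite growth, was at 677 ± 85.3 CPM in sham and 604 ± 91.6 in pMCAO libraries, with -0.16 (SE 0.13). miR-485-5p, known for its part in homeostatic synaptic plasticity, was at 164 ± 32.5 and 163 ± 17.8 CPM, with -0.01 (SE 0.15).

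The highest fold changes belonged to members of low level. miR-412-3p had between 11 and 25 counts per library. It ran from 8.48 to 11.7 CPM in sham libraries, with a median of 8.89, and was at 13.5, 13.0, 15.2, 9.11 and 16.2 CPM in pMCAO libraries, 4 of them above every sham library. Its log2 fold change was 0.52 (SE 0.21, edgeR adjusted p = 0.151), with an interval of 0.06 to 0.97. The next were miR-377-5p and miR-323-5p, both at 0.32 and with mean levels of 18.8 and 21.1 CPM in sham libraries, miR-539-5p at 0.25 (71.2 CPM), miR-485-3p at 0.23 (245 CPM) and miR-666-5p at 0.23 (52.5 CPM). The edgeR adjusted p of these 5 ran from 0.380 to 0.480. The value of miR-377-5p was 0.17 without pMCAO replicate 4, and that of miR-539-5p was 0.14 without pMCAO replicate 1 and 0.38 without pMCAO replicate 3.

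More of the abundant than of the scarce members had a negative fold change. In a split at 500 CPM that was chosen after the values were seen, 15 of the 20 more abundant members had a negative log2 fold change, with a median of -0.10, and 17 of the 36 less abundant ones, with a median of 0.01. Across the 56 members Spearman's rho between level and fold change was -0.42, a description over members that were measured in the same libraries. Neither the split nor the rho was taken over all tested microRNAs, so the pattern cannot be called particular to the cluster. The signs also depend on the scaling, since with total counts alone 7 of the 56 members had a negative value. Position along the chromosome showed less of an order, with a rho of 0.11. The 35 tested members upstream of Mirg had a median log2 fold change of -0.05 and the 21 within Mirg of -0.02. For 5p rows the median was -0.02 (25 tested) and for 3p rows -0.05 (31 tested).

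Which arm of a hairpin was the more abundant did not change between the groups. The share of a hairpin's counts in its 5p row was compared for 30 member hairpins with at least 20 counts in every library. In 11 of them the 5p arm held over 50% of the counts, and the major arm was the same in both groups in 30 of 30. The share ran from 0.529% for miR-668 to 98.1% for miR-539 in sham libraries. The groups differed by a median of 0.783 percentage points in either direction, against 0.465 over all 215 hairpins compared. An exact permutation test over the libraries (two-sided, 462 arrangements, smallest p 0.00216), adjusted over the 215 hairpins, called 0 member hairpins, as it called 0% of all hairpins, and the smallest adjusted p among them was 0.432. At this number of libraries a single hairpin could not pass the adjusted threshold on its own.

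At an unadjusted p under 0.05 in this exact permutation test there were 4 of the 30 member hairpins, against 8.84% of all 215. The 5p share of miR-154 was 82.9% ± 1.43 in sham and 79.9% ± 2.52 in pMCAO libraries (exact permutation test, p = 0.0260). That of miR-329 was 29.9% ± 1.30 and 33.7% ± 3.53 (exact permutation test, p = 0.0281). miR-376b had 14.9% ± 2.16 and 12.1% ± 1.81 (exact permutation test, p = 0.0281), the same direction as the lower level of miR-376b-5p. miR-411 had 69.8% ± 1.54 and 66.6% ± 3.42 (exact permutation test, p = 0.0433). The groups overlapped in all 4. The difference that was largest in size among the member hairpins was that of miR-412, from 71.2% ± 4.30 to 62.5% ± 9.13, with as few as 26 counts in a library.

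**Figure D4:**
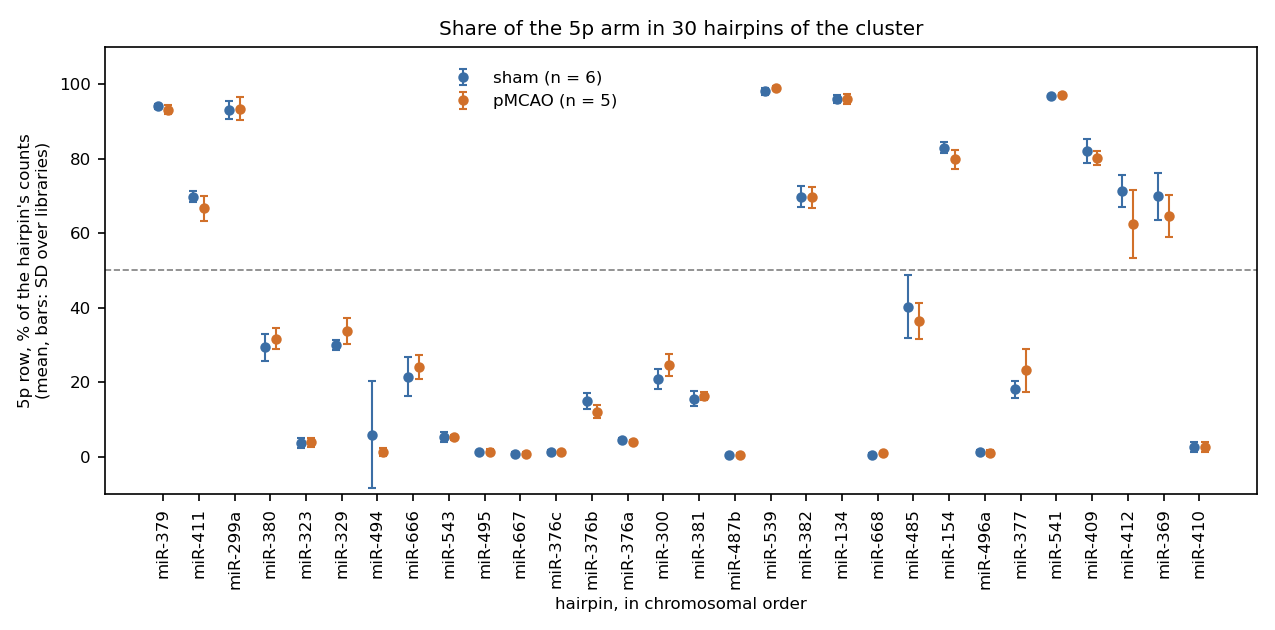
The vertical axis gives the percentage of a hairpin's counts in its 5p row, as the mean and SD over sham (n = 6) and pMCAO (n = 5) libraries, for 30 hairpins in chromosomal order. The dashed line marks 50%, and 11 hairpins lie above it in both groups and 19 below it.

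The 14 members that were not tested did not pass the filter on low counts. miR-1197-5p, miR-654-5p and miR-654-3p had no count in any of the 11 libraries, where 3 counts would correspond to at most 3.55 CPM. Of the rest, 10 had between 1 and 14 counts in their highest library (miR-758-5p, miR-1193-5p, miR-539-3p, miR-679-5p, miR-679-3p, miR-496a-5p, miR-487b-5p, miR-668-5p, miR-410-5p and miR-1197-3p). miR-494-5p had 45 counts in sham replicate 5, none in the other sham libraries and at most 1 in each pMCAO library. Its share of the miR-494 counts was 35.4% in that library, which sets the wide SD of this hairpin in the plot of arm shares.

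The members' levels were weakly correlated on the median among libraries of a group, and many pairs were not. Across the 11 libraries, the deviations of log2 CPM from the group means had a median Pearson r of 0.20 over the 1540 pairs of tested members, and 65.6% of the pairs were above 0, against a median of 0.00 over all pairs of tested microRNAs. Among the 20 members of at least 500 CPM the median was 0.29, against 0.01 for all microRNAs above that level. The median between both arms of the same hairpin was 0.28 over 24 hairpins, of which 6 had a negative r. All pairs share the same libraries, so these values are descriptions. The summed CPM was highest in pMCAO replicate 5 and sham replicate 5, at 37229 and 37023.

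The other microRNAs of the domain had a median fold change near 0 as well. Their sum was lower in pMCAO libraries, as was the sum over all tested microRNAs, which the TMM factors alone set. A list of 45 further rows from the Dlk1-Dio3 domain, some of them inside the cluster but outside its naming rule, had 25 tested rows. None passed the test, 5 had an unadjusted p under 0.05 in edgeR's quasi-likelihood test (3 lower and 2 higher in pMCAO; 20% of the 25, against 24.4% of all tested microRNAs), and the median log2 fold change was -0.02. Their summed CPM was 32554 ± 1827 in sham, from 29957 to 35028, and 28149 ± 1232 in pMCAO libraries, from 26779 to 30116. Over all 479 tested microRNAs the sum, which restates the TMM factors, was 1058480 ± 67360 in sham and 936616 ± 38810 in pMCAO libraries. miR-136-5p, an abundant microRNA upstream of the cluster, was at 10198 ± 725 CPM in sham and 8560 ± 557 in pMCAO libraries, and its groups did not overlap. Its log2 fold change was -0.25 (edgeR adjusted p = 0.0994). It was the only such row of the 25, where 7.52% of all tested microRNAs had groups that did not overlap.

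Cell type markers differed between the same libraries. The summed CPM of 6 neuronal markers ran from 329332 to 417639 in sham and from 282684 to 334213 in pMCAO libraries, with a median log2 fold change of -0.11 and 0 of 6 called. For the most abundant of them, miR-124-3p, the fit gave -0.32 (SE 0.09, edgeR adjusted p = 0.0523), and its pMCAO libraries all lay below the sham libraries. For miR-128-3p it gave -0.39 (SE 0.18, edgeR adjusted p = 0.201). miR-138-5p went the other way, at 0.21 (SE 0.15). miR-9-5p was at -0.10 (SE 0.11), miR-137-3p at -0.04 (SE 0.12) and miR-218-5p at -0.12 (SE 0.15), and the groups of these 3 overlapped. The summed CPM of all 479 tested microRNAs, for comparison, ran from 963934 to 1156680 in sham and from 879689 to 969410 in pMCAO libraries. That sum is set by the TMM factors alone. Of 5 leukocyte markers, 4 were called higher in pMCAO, against 21 of all 479 tested microRNAs. Their log2 fold changes were 2.31 for miR-223-3p, 2.79 for miR-155-5p, 1.55 for miR-142a-3p and 1.46 for miR-142a-5p. miR-155-5p was at only 3.42 ± 1.10 CPM in sham libraries, near the level of 3 counts, and at 25.4 ± 21.1 in pMCAO libraries. The fifth and most abundant in sham libraries, miR-150-5p, was at 2735 ± 474 CPM in sham and 2300 ± 416 in pMCAO libraries, with -0.25 (SE 0.15), and the list summed to between 2424 and 3722 CPM in sham and between 3166 and 6426 in pMCAO libraries. Of 3 oligodendrocyte markers, miR-338-3p was called lower, as were 13 of all 479 tested microRNAs. The oligodendrocyte sums were 4287 to 5244 CPM in sham and 2530 to 4955 CPM in pMCAO libraries. Neither of the 2 endothelial markers was called, with sums of 9192 to 13016 and 9518 to 13653 CPM, nor either of the 2 tested of 4 erythrocyte markers, with sums of 49.2 to 5375 and 639 to 4734 CPM, of which miR-144-5p and miR-486a-5p were each at 0 in 1 library. In bulk tissue, fewer cells of a type and less RNA per cell cannot be told apart, and the part of the cell makeup in the members' values was not tested.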

How the data were processed

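Small RNA was sequenced from 6 sham and 5 pMCAO mouse brains on an Ion Torrent S5. The authors removed adapters with the Torrent Suite (5.0.2), selected a read length of 20 to 30 bp, aligned to mm10 with Bowtie and counted on miRBase 21 with HTSeq, whose settings are not given in the sources used here. The deposited values are raw counts for each mature microRNA, so the length filter and the assignment of reads could not be varied. The reads carry no molecular identifiers, and floors cover counting error only. The labels give each library as a separate mouse sample, and no pair of libraries of a group agreed within sampling noise.

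Counts were analysed with edgeR 4.0.16 in R 4.3.3 (filterByExpr with a minimum count of 10, minimum total 15; TMM; glmQLFit and glmQLFTest; Benjamini-Hochberg over 479 microRNAs; threshold 0.05), with DESeq2 1.42.0 as an alternative. Arm shares were compared by exact permutation. Intervals are for each microRNA alone. Named were members past the threshold, the 12 most abundant, the 6 highest and 6 lowest fold changes, and tested members sharing a seed. miR-134-5p, miR-329-3p and miR-485-5p were added after the values were seen. The members and lists were chosen with earlier results of these data known. Sequences and hairpin positions came from RefSeq (GRCm38.p6), host genes from GENCODE vM21. On simulated counts for this comparison (469 microRNAs, 193 changed), edgeR recovered 87.8% of 2-fold and 100% of 4-fold changes, with 3.21% of its calls false. The simulated share of changed microRNAs was far above the 7.1% called in the data, so recovery in the data may be lower. Changes under 2-fold were not simulated.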

Additional observations from a re-analysis of the deposited data

Results flagged for a closer look

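Of 56 sets of values, each within 1 group, 5 held a library apart from the rest of its group by Dixon's criterion, where chance alone gives about 2.8. Each of these 5 was 1 microRNA in 1 group, with values as log2(CPM + 1). In the pMCAO group, miR-411-3p was at 8.74 in replicate 5 and between 8.05 and 8.13 in the others, miR-323-5p was at 4.16 in replicate 5 and between 4.82 and 5.05 in the others, and miR-543-3p was at 9.28 in replicate 3 and between 9.58 and 9.68 in the others. In the sham group, replicate 4 stood apart for miR-539-5p, at 6.39 against 6.09 to 6.16, and for miR-412-3p, at 3.67 against 3.25 to 3.39.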

How the results depend on the processing

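No member was called under 4 other scalings, without the filter (67 members tested), with at least 10 counts in every library (53 tested) or with any library left out (0 to 0). The count of members called, all of them lower, was 1 with DESeq2 and 1 with edgeR's robust fit (miR-300-3p), and 4 at an adjusted p under 0.1. Of all 479 tested microRNAs, DESeq2 called 45 and the robust fit 36. The last of the 4 members, miR-379-5p, ranked 55th by p among all tested microRNAs, so at least 55 passed 0.1. Scaling by total counts alone moved the median log2 fold change of the members to 0.14 and that of all tested microRNAs to 0.18. It gave miR-379-3p 0.104, miR-411-3p 0.0959, miR-329-3p 0.0139, miR-495-3p 0.0706, miR-376c-5p 0.159, miR-376b-3p 0.0860, miR-376a-3p 0.0828, miR-382-5p 0.0914, miR-134-5p 0.0590, miR-154-5p 0.0938, miR-485-5p 0.146 and miR-376c-3p 0.0715, the opposite sign to the TMM value, and 52 of 56 intervals within a 2-fold change. The other named members kept their sign there, with the values of the positive ones higher and those of the negative ones closer to 0. miR-543-3p was at -0.00477 with DESeq2 size factors, -0.000827 with TMM factors from the other rows, -0.00484 with DESeq2 and -0.0274 without the filter. miR-485-5p was at 8.67e-05 with upper-quartile factors and 0.0225 with at least 10 counts in every library. With 1 library left out, the log2 fold change ran from -0.177 to 0.0342 for miR-379-3p, from -0.232 to 0.0167 for miR-411-3p, from -0.0260 to 0.0647 for miR-543-3p, from -0.170 to 0.0896 for miR-376c-5p, from -0.138 to 0.000314 for miR-382-5p and from -0.0988 to 0.0468 for miR-485-5p. Of the 27 named members, 14 kept their sign in every fit. Same-numbered libraries of the groups correlated above 0.1 in 3 of 5 pairs (-0.08 to 0.23), and 1 of 5 correlated best with its own number. Differently numbered libraries ran from -0.25 to 0.23. With 5 correlations, a link between libraries of the same replicate number can be neither shown nor excluded. With the number as a replicate block 0 members were called, the median was -0.06, miR-485-5p was at 0.0520, and 22 microRNAs were called in all, against 34 without it. With 1 library left out, between 16 (without sham replicate 3) and 36 were called in all, and with at least 10 counts in every library 18. The causes were not tested. Intervals within a 2-fold change numbered 55 of 56 with edgeR's robust fit, 54 with the replicate block and between 54 and 56 with 1 library left out. Without the filter they numbered 55 of 67. In the main fit the widest interval was that of miR-667-5p, the least abundant tested member.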
